A study of Mus musculus with 2 samples.

Results

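The cells described here are lung macrophages rich in complement C1q that also carry Mrc1, Folr2 or Pf4 transcripts. They were chosen by UMI counts (UMIs are single captured mRNA molecules). A barcode entered with at least 500 genes, at most 10% mitochondrial UMIs, at least 20 UMIs of C1qa, C1qb and C1qc together and at least 5 of Mrc1, Folr2 and Pf4 together. It was dropped with more than 1 UMI of Cd3d, Cd3e and Cd3g together, or with 3 or more of Mki67, Top2a and Birc5. That left 327 cells of the 14179 cells that passed the gene and mitochondrial limits: 199 of 8066 in library 1 (2.47%, 95% exact binomial interval 2.14% to 2.83%) and 128 of 6113 in library 2 (2.09%, 1.75% to 2.48%). All intervals given here cover counting error only, since cells of 1 library are not replicates.

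The study profiled live CD45+ cells sorted from digested lungs of WT mice and of mice labelled Siah1a/2 KO, with droplet 3′ single-cell RNA sequencing, 7 weeks after the first urethane treatment. Urethane is a carcinogen that induces lung adenomas in mice, and Siah1a and Siah2 are RING ubiquitin ligases. Both genotypes received urethane, each genotype is represented by 1 sample, and the labels give neither the strain, the age or the number of mice pooled nor the cells in which the genes were deleted. The deposited matrix holds both samples, told apart by a barcode suffix, and the sources used here do not say which suffix is which genotype. The libraries are therefore called library 1 and library 2 after the suffix, and no value below is a comparison of genotypes or has a replicate check.

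Lung macrophages fall into alveolar cells, which live in the airspaces and express Siglecf and Marco, and interstitial cells, which live in the tissue. Among interstitial macrophages, a perivascular type that carries Lyve1, Folr2 and scavenger receptors is usually set apart from a type rich in MHC class II and Cx3cr1. Both types can take up dying cells: C1q coats such cells, Gas6 bridges their exposed phosphatidylserine to the receptors Mertk and Axl, and Stab1 and Mrc1 are endocytic receptors. Monocytes that enter an inflamed lung carry Ly6c2 and Ccr2 and can become macrophages there.

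The promoters of 4 genes are shown because the first pair carried most of the choice of cells, and the second pair had transcripts that were concentrated in a minority of the cells. Each is the 250 bases before the annotated start, from RefSeq on GRCm38.p6, 5′ to 3′ on the plus strand. Mrc1 lies at chr2:14229164-14229413, Pf4 at chr5:90772185-90772434, Ccl8 at chr11:82114935-82115184 and Retnla at chr16:48842359-48842608. Capitals mark letters searched on both strands: GAGGAA or TTCCTC, the core read by the myeloid factor PU.1; TGCTGA or TCAGCA, a MAF half-site; and TTC followed after 4 bases by GAA, the spacing read by STAT6.
Mrc1: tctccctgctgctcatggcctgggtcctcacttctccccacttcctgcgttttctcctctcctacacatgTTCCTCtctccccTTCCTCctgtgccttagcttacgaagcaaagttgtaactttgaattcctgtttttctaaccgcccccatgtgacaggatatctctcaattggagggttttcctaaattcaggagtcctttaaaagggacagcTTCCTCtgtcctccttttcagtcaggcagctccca
Pf4: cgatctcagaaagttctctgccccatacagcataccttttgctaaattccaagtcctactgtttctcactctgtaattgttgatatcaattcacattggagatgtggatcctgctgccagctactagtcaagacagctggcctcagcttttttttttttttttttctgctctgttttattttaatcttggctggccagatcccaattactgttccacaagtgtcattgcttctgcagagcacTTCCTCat
Ccl8: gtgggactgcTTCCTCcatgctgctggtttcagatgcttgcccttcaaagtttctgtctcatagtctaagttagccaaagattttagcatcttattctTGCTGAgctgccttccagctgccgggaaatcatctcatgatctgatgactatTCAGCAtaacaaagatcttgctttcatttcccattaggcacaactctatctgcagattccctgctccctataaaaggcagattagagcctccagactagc
Retnla: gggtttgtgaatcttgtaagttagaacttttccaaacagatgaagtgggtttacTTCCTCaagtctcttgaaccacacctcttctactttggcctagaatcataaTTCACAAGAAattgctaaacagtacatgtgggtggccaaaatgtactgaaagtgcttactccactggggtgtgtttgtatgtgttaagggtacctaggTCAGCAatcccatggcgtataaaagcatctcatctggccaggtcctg
The Mrc1 promoter held the PU.1 core 3 times, at -180, -167 and -35, and Pf4 held it 1 time, at -8 (position of the first base relative to the start). Ccl8 held it at -240, with MAF half-sites at -152 and -100. Retnla held the STAT6 spacing at -145, the PU.1 core at -196 and a MAF half-site at -47. Among 32851 promoter windows of the same length, 23.3% held the PU.1 core, 16.1% the MAF half-site and 5.85% the STAT6 spacing. The PU.1 core can overlap the STAT6 spacing, but no matches overlapped in these 4 windows. The matches describe letters and not bound sites.

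The chosen cells were deep. They had a median of 14730 UMIs and 3625 genes in library 1, and of 14025 UMIs and 3633.5 genes in library 2, with 1.23% and 1.15% mitochondrial UMIs. Their summed UMIs were 2992465 and 1864335. They were compared with the other C1q-high cells, which passed the same limits but held under 5 UMIs of Mrc1, Folr2 and Pf4 (373 cells with a median of 10766 UMIs, and 213 cells with 10846). The median C1q count was 238 and 227.5 UMIs in the chosen cells against 84 and 88 in the others. Csf1r, the receptor of the macrophage growth factor, was found in 97.0% and 96.9% of the chosen cells at 505.9 and 490.8 CPM (UMIs of the gene per 1000000 summed UMIs), and the lysosomal protein gene Cd68 in 99.0% and 99.2%. Markers of alveolar macrophages were near 0: Marco had 0 UMIs in both libraries, which allows a share of cells with a UMI of up to 1.51% and 2.34%, and Siglecf had 1 UMI in 1 cell. Of 20 listed alveolar genes, 9 had no UMI, and the list summed to 198.5 and 175.4 CPM. The 2 libraries shared 11 barcodes, of which 10 passed the limits and 0 were chosen cells.

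Mrc1 and Pf4, not Folr2, were the genes that most of the chosen cells carried. Mrc1, the mannose receptor, had a UMI in 95.5% of cells in library 1 and 96.1% in library 2, at a median of 6 and 6.5 UMIs and up to 68 and 60. Pf4, a platelet-type CXC chemokine also made by macrophages, had a UMI in 88.4% and 87.5%, at a median of 8 and 7.5 and up to 135 and 193. Folr2, the folate receptor beta, had a UMI in 28.1% (22.01% to 34.94%) and 30.5% (22.6% to 39.2%), and 28 and 26 cells held 2 or more. The commonest combination was Mrc1 and Pf4 without Folr2, in 114 cells (57.3%) and 75 cells (58.6%). All 3 genes were found together in 53 and 32 cells, Mrc1 alone in 22 and 12, Pf4 alone in 7 and 2, Mrc1 with Folr2 in 1 and 4, Pf4 with Folr2 in 2 and 3, and Folr2 alone in 0 and 0. Some genes of resident macrophages were nearly absent. Lyve1 had a UMI in 1 cell of each library, and the haemoglobin scavenger receptor Cd163 in 3 and 2. The phosphatidylserine receptor Timd4 had a UMI in 0 and 1 cells, and the complement receptor Vsig4 in 0 and 0. Other genes went the other way. Of 27 listed resident macrophage genes, 13 reached the minimum count. Of these 13, 11 were higher than in the other C1q-high cells and 0 lower, as given below. The minimum was on the UMIs of both sets together, so a sparse gene could reach it through the chosen cells alone. Genes as sparse as Lyve1, Cd163, Timd4 and Vsig4 could not enter this count. Whether the cells are of the perivascular type was not tested. The chosen cells are called Mrc1 Pf4 macrophages here. These counts describe the choice of cells and support nothing about it.

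Cells on both sides of the limits are given as a description. In the 37 and 17 cells just inside it, with 5 or 6 UMIs, Gas6 stood at 7.02 and 10.9 CPM, Ccl8 at 53.8 and 333.9 CPM and Ly6c2 at 903.2 and 1702 CPM. In the 51 and 36 cells just outside, with 3 or 4 UMIs, Gas6 stood at 4.32 and 6.45 CPM, Ccl8 at 92.2 and 25.8 CPM and Ly6c2 at 925.9 and 567.9 CPM. The C1q limit was hardly touched, with 3 and 2 cells at 20 to 29 UMIs inside and 5 and 2 cells at 10 to 19 outside. The limit on Cd3 UMIs alone removed 109 and 69 cells, the limit on cycling genes alone 48 and 21, and both together 65 and 36. Folr2 was also found outside the choice: of 79 and 59 cells with 2 or more Folr2 UMIs, 46 and 28 were removed by the Cd3 or cycling limits, 5 and 3 by the C1q limit, and 0 and 2 by the limit on Mrc1, Folr2 and Pf4.

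**Figure D1:**
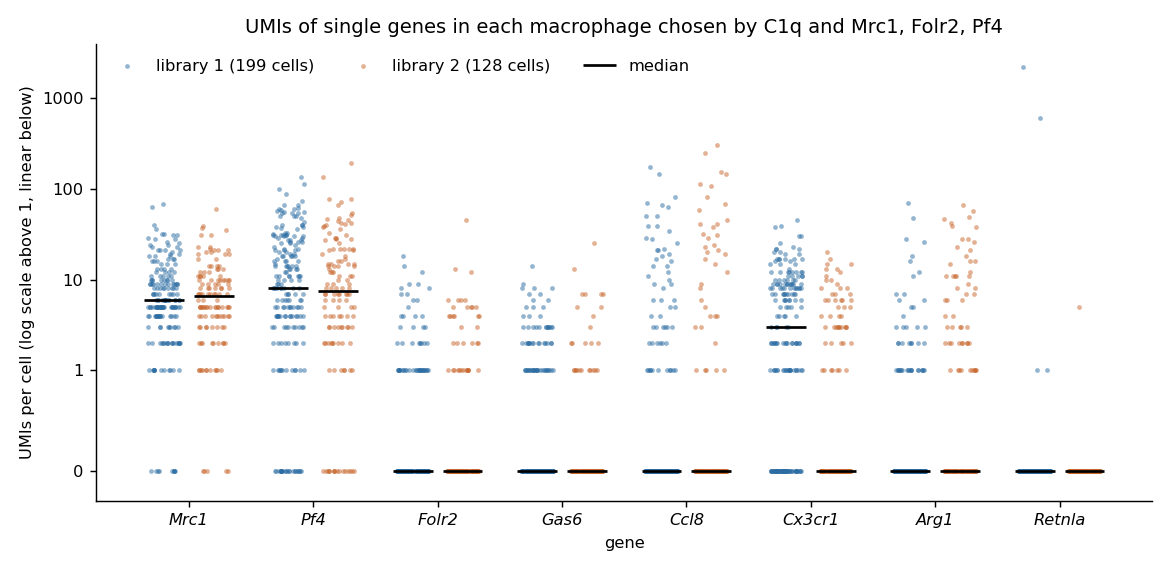
UMIs per cell (vertical axis, log scale above 1 and linear below) of 8 genes in the 199 cells of library 1 (blue) and the 128 cells of library 2 (orange), with each cell as a point and the median as a black line. Mrc1 and Pf4 have medians above 0 in both libraries, Folr2, Gas6, Ccl8, Arg1 and Retnla have medians of 0, and Retnla has 2 cells, at 2205 and 610 UMIs, far above the others.

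Gas6 and Ccl8 are listed as markers of these cells but took no part in the rule. Both were much higher in the Mrc1 Pf4 macrophages than in the other C1q-high cells of both libraries. The markers were listed with earlier results of these data known, so these values are a description and support nothing about the choice of cells. Gas6 stood at 64.5 CPM in library 1 and 55.8 CPM in library 2, against 1.43 and 1.23 CPM in the other C1q-high cells, which are log2 ratios of 5.38 and 5.28. It had a UMI in 34.7% and 20.3% of the Mrc1 Pf4 macrophages, in 1.34% and 1.41% of the other C1q-high cells, and in 0.127% and 0.287% of T cells (median depths of 7481 and 6995 UMIs), which should lack it. Ccl8, a chemokine that attracts monocytes and lymphocytes, stood at 399.0 and 937.1 CPM against 29.3 and 16.5 CPM, log2 ratios of 3.76 and 5.81. It had a UMI in 29.6% and 30.5% of the Mrc1 Pf4 macrophages, in 8.85% and 8.92% of the other C1q-high cells and in 1.75% and 1.97% of T cells. Both genes were nevertheless at 0 in most Mrc1 Pf4 macrophages: 109 and 80 cells had neither. In Ly6c2 monocytes (399 and 320 cells, median depths of 9049 and 9226.5 UMIs), Gas6 was found in 0.501% and in 0 of 320 cells, which allows a share of cells with a UMI of up to 0.938%.

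Across genes with at least 50 UMIs in both sets together and outside the rule, 86 of 7044 (1.22%) were more than 2 times higher than in the other C1q-high cells in both libraries, and 59 (0.838%) more than 2 times lower, each with a 95% counting interval of the ratio that left out 0. Beside Gas6 and Ccl8, the highest were Fcrls, an Fc receptor-like scavenger molecule (212.5 and 150.7 CPM against 1.91 and 5.76, log2 6.72 and 4.66), Vcam1, an adhesion ligand of integrins (3.99 and 3.40), Igfbp4, a binding protein of insulin-like growth factors (3.68 and 3.38), and Stab1, the endocytic receptor stabilin (161.7 and 175.4 CPM against 35.2 and 27.6, log2 2.20 and 2.66). Selenop, the secreted selenium carrier, stood at 770.6 and 779.9 CPM against 252.4 and 239.9, and the tetraspanin genes Cd63 (1.87 and 1.70) and Cd81 (2.31 and 1.58) and the lysosomal enzyme gene Hgsnat (2.07 and 2.21) were also among the 15 highest. Among the 10 lowest, Ly6c2, the surface protein of classical monocytes, stood at 237.3 and 518.7 CPM against 1599 and 1847 (log2 -2.75 and -1.83), Plac8 at log2 -2.65 and -2.14, the interleukin 1 decoy receptor Il1r2 at -2.13 and -2.14, Chil3 at -1.52 and -2.93, the interferon-induced genes Cxcl11 at -1.98 and -1.90 and Ifitm6 at -1.69 and -2.52, the cystine transporter gene Slc7a11 at -1.56 and -1.59, and Ass1, an enzyme of arginine synthesis, at -2.00 and -1.57.

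The listed genes were next counted by function. Of the 13 resident macrophage genes (of 27 listed) that reached the minimum count, 11 were higher in both libraries and 0 lower, with medians of 1.72 and 1.53. Of all genes, 8.53% were higher and 9.2% lower, with medians of 0.02 and 0.03. A sparse gene reached the minimum more easily where it was high in the chosen cells, which favours higher calls among the 13 genes. The 11 higher genes included Cbr2, a carbonyl reductase (log2 4.34 and 4.45), the transcription factor Maf (0.90 and 1.30) and the lectin Mgl2 (1.72 and 1.53). Of 17 efferocytosis and scavenger genes, 7 were higher and 4 lower: Mertk was higher (0.86 and 1.27), while Axl was lower (-0.20 and -0.46). Of 21 genes of the lipid handling programme, 10 were higher and 5 lower, among them Trem2, a lipid receptor (1.66 and 1.55), Apoe, the lipid carrier (1.35 and 1.31) and Abca1, the cholesterol exporter (1.39 and 1.45). Of 13 haem and iron genes, 6 were higher and 1 lower, and of 10 complement genes, 5 were higher and 2 lower. Of 9 cell cycle genes outside the rule, 6 were higher and 0 lower (medians 0.34 and 0.57), among them Mcm5, a subunit of the replicative helicase (33.4 and 18.8 CPM against 16.0 and 7.00). Of 9 classical monocyte genes, all 9 were lower, with medians of -1.52 and -1.83 and a summed level of 1795 and 2906 CPM against 6296 and 7707. All 8 MHC class II genes were lower (medians -0.71 and -0.49), with H2-Aa at -0.82 and -0.47. Of 21 interferon-stimulated genes, 14 were lower and 0 higher, and of 20 interferon gamma response genes, 14 were lower and 0 higher. Of 19 immediate early genes, which are also induced by tissue digestion, 12 were lower and 0 higher (medians -0.43 and -0.50). Depth, C1q level and Ly6c2 moved with the choice of cells, and their part in these differences was not tested.

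**Figure D2:**
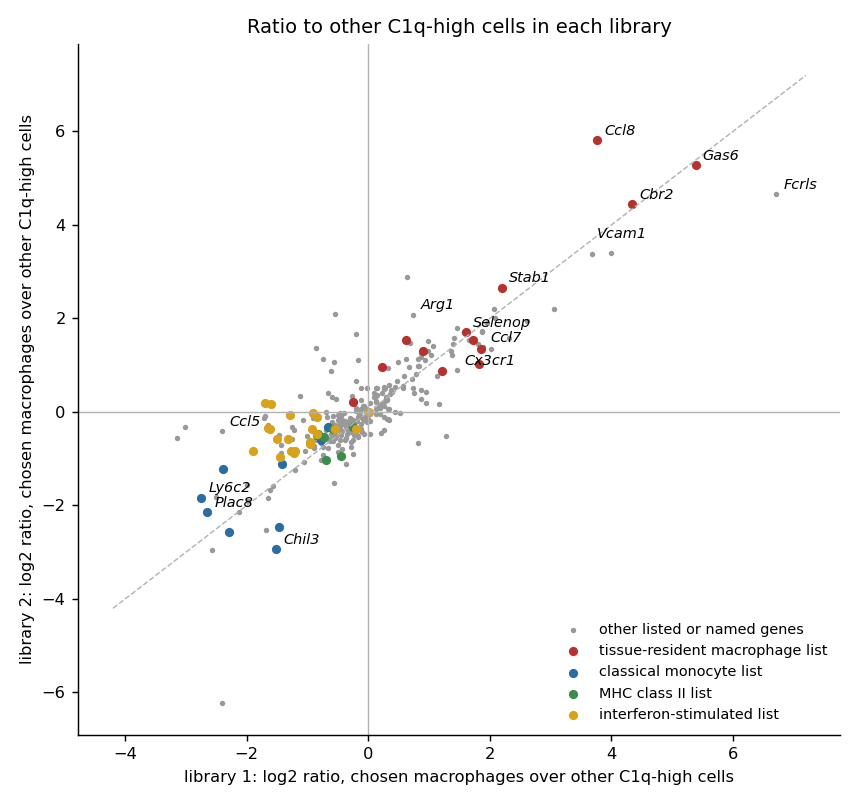
Log2 ratio of CPM, Mrc1 Pf4 macrophages over the other C1q-high cells, in library 1 (horizontal axis) and library 2 (vertical axis), with 1 point per listed or named gene, coloured by list, and a dashed line of equal ratios. Gas6, Cbr2, Fcrls and Ccl8 lie far up on both axes, and Ly6c2, Plac8 and Chil3 lie low on both.

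Retnla, which encodes the secreted protein RELM alpha induced by interleukins 4 and 13, differed most between the libraries and rested on 2 cells. The Mrc1 Pf4 macrophages held 2817 Retnla UMIs in library 1 (941.4 CPM) and 5 in library 2 (2.68 CPM), a log2 ratio of library 2 over library 1 of -8.32 (-10.08 to -7.23). Of the 2817 UMIs, 2205 lay in 1 cell and 610 in another, 99.9% of the total, and the other 2 cells with any Retnla held 1 UMI each. All 5 UMIs of library 2 lay in 1 cell. Without the pair of cells the log2 ratio was 1.80 (-0.63 to 5.38), on 2 UMIs against 5. The pair also held 95.01% of all 2963 Retnla UMIs in library 1, so the difference in Retnla between the whole libraries was largely theirs. Outside the Mrc1 Pf4 macrophages, library 1 held 112 Retnla UMIs in 53 kept cells, 47 of them in 1 cell and 14 in another. Of all kept cells of library 1 with the gene, 53 of 57 had 1 UMI, including 29 of 3150 T cells (0.921%), where 0 of 2788 T cells in library 2 had any (which allows a share of up to 0.108%). The other C1q-high cells held 2 UMIs in library 1 and 0 in library 2.

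The 2 cells rich in Retnla were Mrc1 Pf4 macrophages by more than the lower limit of the rule. The first had 17530 UMIs and 3440 genes, with 13 UMIs of Mrc1, 9 of Folr2, 25 of Pf4 and 0 of Gas6 and Ccl8. The second had 22149 UMIs and 4787 genes, with 63 of Mrc1, 18 of Folr2, 88 of Pf4, 14 of Gas6 and 1 of Ccl8. Both also carried chemokine, matrix and lectin transcripts. Ccl24, an eosinophil-attracting chemokine, had 14 and 50 UMIs, the matrix gene Fn1 26 and 29, the eosinophil-associated ribonuclease gene Ear2 20 and 4, and Mgl2 19 and 7. The other 197 cells of library 1 held 7 Ear2 UMIs in 4 cells and 122 Ccl24 UMIs in 8 cells, 115 of them in 1 cell. Fn1 and Mgl2 were not particular to the pair: they were found in 54 and 55 of those 197 cells, with up to 41 and 99 UMIs. The pair held 192 and 85 UMIs of H2-Aa. The cell of library 2 with 5 Retnla UMIs was different again, with 46 UMIs of Folr2, 115 of Ccl8, 12 of Lyve1, 20 of Cd163 and 5 of H2-Aa. The genes of these 3 cells were read after their Retnla values were seen.

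The deleted genes were sparse in these cells. Siah1a had 4 UMIs in library 1 (1.34 CPM) and 15 in library 2 (8.05 CPM), a log2 ratio of 2.47 (0.94 to 4.64). Siah2 had 11 UMIs in 11 cells (3.68 CPM) and 51 in 40 cells (27.4 CPM), a log2 ratio of 2.85 (1.94 to 3.98). Siah1b, the related gene that is not named in the labels, had 5 and 3 UMIs (0.03, -2.74 to 2.31). In the other C1q-high cells the ratios were 2.33 for Siah1a and 1.72 for Siah2. A 3′ tag outside a deleted part does not report on the deletion, the deleted parts are not given in the sources used here, and no genotype was read from these levels.

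Between the libraries, Cx3cr1 and Olfml3 were lower in library 2 and Ccl5 and Arg1 were higher, and each ratio kept its side of 0 without the 2 richest cells of each library. Of 7442 genes with at least 50 UMIs in the Mrc1 Pf4 macrophages, 82 (1.1%) were more than 2 times higher in library 2 and 56 (0.752%) more than 2 times lower, with a counting interval that left out 0, and 1517 (20.4%) had such an interval at any size. Together, 138 genes (1.85%) were past 2 times. The split was 68 higher and 69 lower when the totals left out mitochondrial and ribosomal genes or the libraries were scaled by their median gene, which shifted all ratios by 0.055. Without the 2 cells of each library richest in each gene it was 67 higher (0.9%) and 95 lower (1.28%). Of the 138 genes, 118 (1.59% of those tested) were past 2 times, with an interval that left out 0, both with and without those cells.

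Cx3cr1, the fractalkine receptor, stood at 407.0 CPM in library 1 and 163.1 CPM in library 2 (log2 -1.32, -1.51 to -1.14). It had a UMI in 71.4% of cells (64.5% to 77.5%) in library 1 and 40.6% (32.04% to 49.66%) in library 2, and in 48.96% and 22.05% when each cell was thinned to 3000 UMIs (192 and 127 cells). The cells of the libraries overlapped, but the medians were 3 and 0 UMIs. The ratio was -1.40 without the 2 richest cells of each library, and -0.74 in the other C1q-high cells. Olfml3, a secreted olfactomedin-like protein, stood at 68.5 and 27.4 CPM (-1.31, -1.80 to -0.88). The growth factor gene Igf1 was also lower in library 2, at 14.4 and 4.83 CPM in 18 and 5 cells (-1.51, -2.80 to -0.52).

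Arg1, the arginase that breaks down arginine, stood at 106.6 and 377.6 CPM (log2 1.82, 1.63 to 2.02). It had a UMI in 47 of 199 cells (23.6%) and 56 of 128 cells (43.8%), and in 10.9% and 30.7% after thinning. Its ratio was 2.21 without the 2 richest cells of each library and 0.49 in the other C1q-high cells. Arg1 and Cxcl9, a chemokine induced by interferon gamma, were read together in each cell: 14 and 30 cells held 5 or more Arg1 UMIs, 47 and 37 held 5 or more Cxcl9 UMIs, and 3 and 9 held both. Neither was found at that level in 141 and 70 cells. Cxcl9 was higher in library 2 (698.8 and 1075 CPM, log2 0.62), while Cxcl10, its relative, was lower (1190 and 708 CPM, -0.75).

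Ccl8, described above, was more than 2 times higher in library 2 (1.23, 1.12 to 1.34). Its 2 richest cells held 26.9% of the Ccl8 UMIs of library 1 and 31.9% of those of library 2, and the ratio without them was 1.13. Cells with 5 or more Ccl8 UMIs numbered 34 and 28. In the other C1q-high cells its ratio was -0.82 (-1.38 to -0.31), but 1 cell of library 1 held 54 of the 123 Ccl8 UMIs there, and without the richest cell of each library the ratio was -0.31 (-0.97 to 0.31). Gas6 had a ratio of -0.21 (-0.57 to 0.14), but 2 cells of library 2 held 36.5% of its UMIs there. Without the 2 richest cells of each library the Gas6 ratio was -0.68 (-1.12 to -0.26), and its share of cells with a UMI was 34.7% and 20.3%. The genes of the rule itself are given as a description only, at 594.5 and 607.2 CPM for Mrc1, 1140 and 1140 CPM for Pf4 and 60.5 and 93.9 CPM for Folr2.

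**Figure D3:**
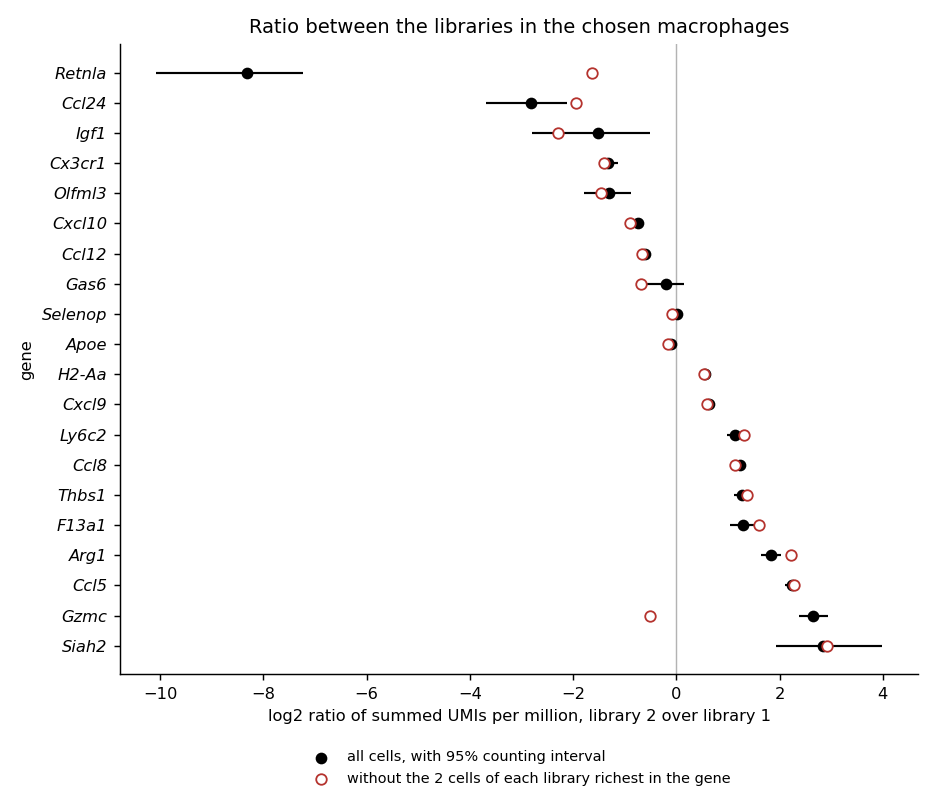
Log2 ratio of CPM, library 2 over library 1, for 20 genes in the Mrc1 Pf4 macrophages, with the 95% counting interval (black) and the ratio without the 2 cells of each library richest in that gene (red circles). Retnla moves from -8.32 to -1.64 and Gzmc from 2.64 to -0.51, while Cx3cr1, Ccl8, Arg1, Ccl5 and Siah2 keep their side of 0.

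Monocyte genes were higher in the Mrc1 Pf4 macrophages of library 2. Of 8 measured classical monocyte genes, 6 were higher and 0 lower (median 0.59), where 12.8% of all genes were higher and 7.62% lower and the median of all genes was 0.05. Ly6c2 stood at 237.3 and 518.7 CPM (1.13), Plac8 at 314.5 and 521.9 CPM (0.73) and the chemokine receptor gene Ccr2 at 484.6 and 646.9 CPM (0.42), in 52.3% and 74.2% of cells. The share of cells with a Ly6c2 UMI was 55.8% and 54.7%, so that the higher level of library 2 was not a larger share of positive cells. The 37 and 17 cells with 5 or 6 UMIs of Mrc1, Folr2 and Pf4 held 54.4% and 32.2% of the Ly6c2 UMIs, and the 162 and 111 cells above them stood at 126.3 and 390.1 CPM. F13a1, the coagulation factor subunit found in monocytes and in some resident macrophages, stood at 77.2 and 188.3 CPM (1.29), and the matrix protein thrombospondin gene Thbs1 at 170.4 and 411.4 CPM (1.27). In the opposite direction, the chemokine genes Ccl7 (1239 and 937.1 CPM, -0.40) and Ccl12 (1251 and 826 CPM, -0.60), both ligands of Ccr2, were lower in library 2, and Ccl2 differed little (1234 and 1113 CPM, -0.15).

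Antigen presentation and complement genes were also higher in library 2. For the lists below, the share over all genes was 12.8% higher and 7.62% lower. Of 8 MHC class II genes, 6 were higher and 0 lower (median 0.30), with H2-Aa at 3862 and 5686 CPM (0.56), H2-Eb1 at 0.49 and H2-Ab1 at 0.40. Of 12 complement genes, 8 were higher and 0 lower (median 0.42). Cfb, the factor of the alternative pathway, stood at 76.5 and 164.1 CPM (1.10) in 49.7% and 66.4% of cells, C3 at 80.5 and 138.9 CPM (0.79), and the receptor genes C3ar1 (0.35) and Itgam (0.60) were among the 8. Of 20 interferon gamma response genes, 13 were higher and 2 lower (median 0.36), and of 22 interferon-stimulated genes, 11 were higher and 2 lower (median 0.18). The inducible nitric oxide synthase gene Nos2 was found in 8 and 12 cells (1.16, 0.39 to 1.97). Of 18 hypoxia and glycolysis genes, 12 were higher and 2 lower (median 0.35), among them Hif1a (0.80), Bnip3 (0.73) and Vegfa (0.79), with Eno1 lower (-0.87). The summed level of Ly6c2 and the other classical monocyte genes moved with these groups, at 1795 and 2906 CPM, and its part in them was not tested.

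Resident macrophage genes went both ways. Of 15, 7 were higher in library 2 and 3 lower (median 0.12), with F13a1 and Ccl8 on the higher side and Igf1 on the lower. For this and the lists below, the share over all genes was 12.8% higher and 7.62% lower. Selenop stood at 770.6 and 779.9 CPM and Stab1 at 161.7 and 175.4 CPM. Of 19 efferocytosis and scavenger genes, 4 were higher and 3 lower (median -0.03), Mertk at -0.24 (-0.83 to 0.32) and Axl at 126 and 96.6 CPM (-0.38). Of 20 lipid handling genes, 11 were higher and 4 lower (median 0.19): the cathepsin gene Ctsl stood at 642.3 and 1070 CPM (0.74) and Cd9 at 0.79, while Apoe (12688.5 and 11846 CPM, -0.10) and Trem2 (0.12) differed little in size. Of 15 haem and iron genes, 3 were higher and 2 lower. Hmox1, haem oxygenase, stood at 253.3 and 358.3 CPM (0.50), but 2 cells held 56.9% of its UMIs in library 2 and the ratio without the richest cells was -0.27. Of 18 chemokine genes, 6 were higher and 8 lower (median -0.08), among them Ccl6 (499.6 and 934.4 CPM, 0.90) and Ccl9 (0.71) on the higher side and Ccl3 (-0.74) on the lower. Of 26 transcription factor genes, 6 were higher and 4 lower: Klf2 stood at 384.3 and 219.9 CPM (-0.80), and Maf at 439.4 and 512.8 CPM (0.22).

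**Figure D4:**
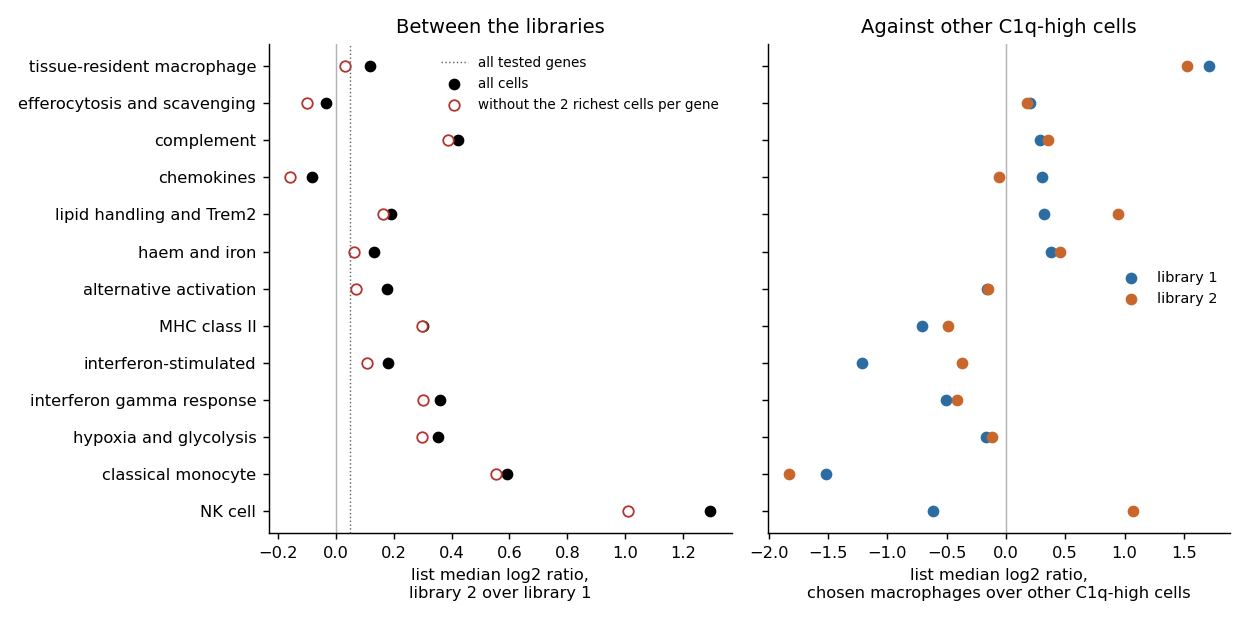
Median log2 ratio of the measured genes of 13 lists (horizontal axes) between the libraries (left, black for all cells, red circles without the 2 richest cells per gene, dotted line for all genes) and against the other C1q-high cells (right, blue for library 1, orange for library 2). On the left the lists run from -0.08 for chemokines to 1.29 for NK cell genes, and on the right resident macrophage genes lie highest and classical monocyte genes lowest.

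Transcripts of NK cells and cytotoxic lymphocytes stood apart between the libraries and were concentrated in few cells. Against 12.8% of all genes higher and 7.62% lower, 8 of 9 measured NK cell genes were higher in library 2 and 0 lower (median 1.29). The median turned to -0.37 in cells with no UMI of 8 lymphocyte genes and to -0.51 without the deepest 10% of cells. Those 8 genes include Ncr1, which is on the NK cell list, so that the first filter by design removed cells with that transcript. The list summed to 477 and 1565 CPM, against 1403 and 1469 CPM in the other C1q-high cells. Ccl5, which is on the list, made up 197.5 and 932.8 CPM of these sums. The median Mrc1 Pf4 macrophage held 2 UMIs of the list in both libraries, and the highest held 210 and 371. Gzmc, a granzyme gene, stood at 44.4 and 277.8 CPM (2.64), but was found in 76 and 24 cells, 2 cells held 92.3% of its UMIs in library 2, and without the 2 richest cells of each library the ratio was -0.51. Prf1, the pore-forming perforin gene, was found in 26 and 13 cells (1.60), and 2 cells held 59.1% of its UMIs in library 2. Ccl5, a chemokine made by NK and T cells and by myeloid cells, stood at 197.5 and 932.8 CPM (2.24, 2.10 to 2.38) in 80 and 75 cells. Its ratio was 2.27 without the 2 richest cells of each library, 2.33 in the 119 and 96 cells with no UMI of 8 lymphocyte genes, and 0.24 in the other C1q-high cells. T cell genes, whose Cd3 members were limited by the rule, summed to 140.4 and 143.2 CPM. No doublet caller was run, and the part of cell pairs or free RNA in the NK cell genes was not tested.

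The other genes at the ends of the comparison were of several kinds. Among the 10 highest of those with at least 50 CPM, Ly6i (24.7 and 103.5 CPM, 2.06), Ifit1bl1 (13.7 and 57.4 CPM, 2.06), Ifitm1 (176.4 and 554.6 CPM, 1.65) belong to families with interferon-induced members, and Klrb1b is a lectin receptor gene (1.77). Ifit1bl1 was found in 16 and 23 cells, and its 2 richest cells held 43.9% of its UMIs in each library. Upp1, uridine phosphorylase, stood at 26.4 and 107.8 CPM (2.02). G530011O06Rik (3.11), Rpl10-ps3 (1.65), Gm42031 (-3.69), Rpl35 (-1.80), Gpx4 (-1.53) and Mir6236 (-1.51) differed the same way in all other kept cells together, at 2.81, 1.88, -2.98, -1.69, -1.07 and -1.76. Some of these share sequence with pseudogenes or ribosomal RNA, so that their counts are uncertain. Ccl24 stood at 62.2 and 8.58 CPM (-2.82, -3.69 to -2.12), in 10 and 5 cells, with 88.7% and 81.2% of its UMIs in 2 cells. Mt1, a metallothionein, stood at 327.2 and 169.0 CPM (-0.95).

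Within the Mrc1 Pf4 macrophages, the cells with 2 or more Folr2 UMIs (28 of 199 and 26 of 128) carried more of the resident macrophage genes and less MHC class II and Ccr2. This limit was set after the data were seen, and depth was somewhat higher in the Folr2 cells (medians 16459.5 against 14205 UMIs in library 1, and 16341 against 13885.5 in library 2). Ccl8 stood at 1251 CPM against 241.2 in library 1 and at 2193 against 579.0 in library 2 (log2 2.37 and 1.92). Gas6 was higher by 1.91 and 2.66 on the log2 scale, Cbr2 by 1.91 and 3.56, Fcrls by 1.13 and 2.32, Selenop by 1.02 and 1.13 and Stab1 by 0.44 and 1.45. Ccr2 stood lower (-2.12 and -0.80), as did H2-Aa (-1.29 and -0.44) and Cd74, the invariant chain that accompanies MHC class II (-1.26 and -0.38). Cxcl9 did not differ beyond counting error (-0.04 and -0.08). Ly6c2 was lower in library 1 (-2.96) and not beyond its interval in library 2 (-0.13). Spp1, osteopontin, went opposite ways (2.07 and -0.98), and a single cell held 347 of its UMIs. All but 1 of the Retnla UMIs of library 1 lay in cells with 2 or more Folr2 UMIs.

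**Figure D5:**
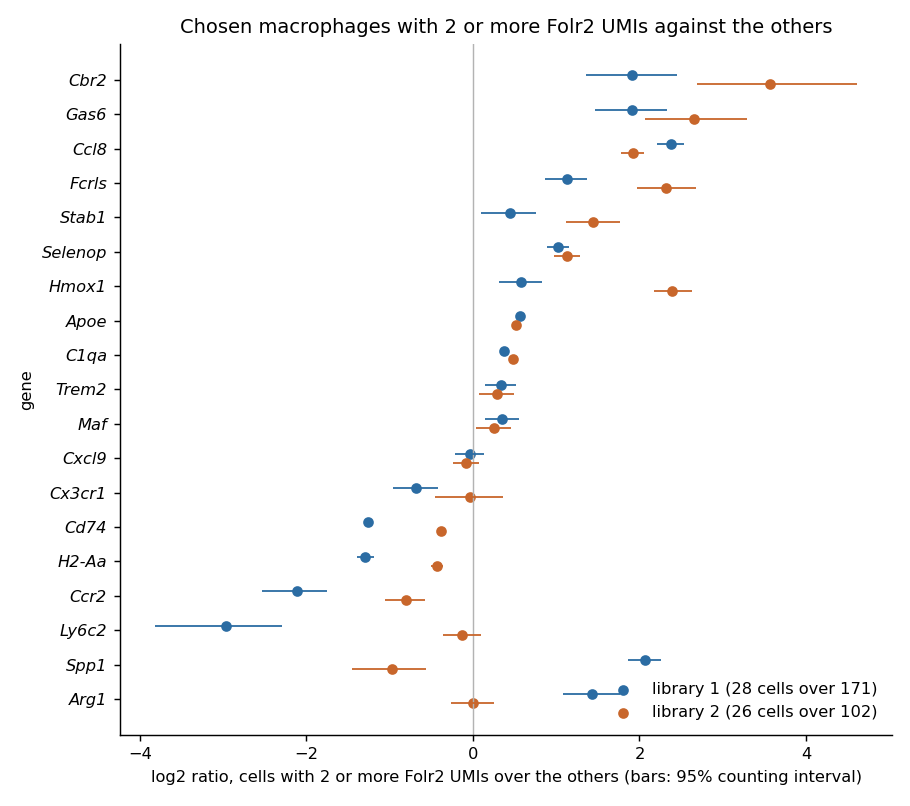
Log2 ratio of CPM (horizontal axis), Mrc1 Pf4 macrophages with 2 or more Folr2 UMIs over the others, for 19 genes in library 1 (blue, 28 cells over 171) and library 2 (orange, 26 cells over 102), with 95% counting intervals. Cbr2, Gas6 and Ccl8 lie to the right in both libraries and H2-Aa and Ccr2 to the left in both, while Spp1 lies on opposite sides.

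Cell by cell, the relations were weak to moderate. After thinning to 3000 UMIs, Spearman's rho over 192 and 127 cells was 0.28 and 0.33 between Folr2 and Ccl8, 0.15 and 0.45 between Gas6 and Ccl8, -0.43 and -0.22 between Pf4 and H2-Aa, -0.34 and -0.32 between Ccl8 and Ccr2, and 0.45 and 0.23 between H2-Aa and Ccr2. It was -0.15 and -0.05 between Folr2 and Ccr2, 0.06 and 0.20 between Mrc1 and Folr2, -0.18 and -0.08 between Ccl8 and H2-Aa, and of opposite sign in the libraries between Mrc1 and Ccr2 (-0.06 and 0.19). Cells of 1 library share its depth and free RNA. Mrc1, Folr2 and Pf4 made the rule together, so that a cell low in 1 of them entered only through the others. The choice of cells therefore shaped the values that involve these genes, and all values are given as a description. Before thinning, Mrc1 UMIs followed total UMIs with a rho of 0.55 and 0.47, so that a deeper cell met the rule more easily.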

How the data were processed

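The authors deposited 1 matrix of UMI counts per gene and barcode for both samples (55401 gene IDs, 15001 barcodes). Cell Ranger 6.1.2 and the build mm10 are named in the submitters' processing notes, and other steps are not given in the sources used here. The counts were used raw with Python 3.11.15, numpy 2.4.6, scipy 1.17.1, pandas 2.3.3 and matplotlib 3.10.9. Cells were chosen as the report states, and their UMIs were summed per library. Ratios used CPM of the sums with 0.5 UMI added, and an exact conditional binomial 95% interval. Genes needed 50 UMIs in both sums together. With 1 library of each kind no p-value was computed. The labels name no separate animals. T cells had at least 5 Cd3 UMIs and at most 2 of C1q. Ly6c2 monocytes had at least 5 of Ly6c2, 5 of Ccr2 and 2 of Csf1r and at most 2 of C1q, a gate set after the data were seen. Shares carry exact Clopper-Pearson intervals, and a share of 0 allows 3 counts. Thinning used a fixed seed. GENCODE M21 (GRCm38) matched 54349 gene IDs, and promoters came from RefSeq.

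The members and gene lists were chosen with earlier results of these data known. Named genes were the markers and Siah genes, the 10 highest and 10 lowest between libraries with at least 50 CPM, the 15 highest and 10 lowest against the other C1q-high cells, and up to 4 genes per list, with named examples beyond these chosen after their values were seen. On simulated data for the comparison between libraries (7285 genes), the interval left out 0 in the right direction for 75.8% of genes altered 1.5 times, 95.2% at 2 times and 100% at 4 times, and left out 0 for 4.30% of 7097 unaltered genes. The simulated sums held counting error only, which is what the interval assumes. These rates therefore do not cover spread between cells or between libraries. Alternatives changed the limits on cells, the totals, the scaling, the pseudocount, the minimum count and the depth, and left out the richest cells.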

Additional observations from a re-analysis of the deposited data

Results flagged for a closer look

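Ccl8, Ifit1bl1 and Fcrls had library ratios of opposite sign in the Mrc1 Pf4 macrophages and in the other C1q-high cells, but without the 2 richest of the other cells in each library only the Ifit1bl1 interval in those cells left out 0. For Ccl8, library 2 stood 1.23 above library 1 on the log2 scale in the Mrc1 Pf4 macrophages and at -0.82 (-1.38 to -0.31) in the other cells, where 1 cell of library 1 held 54 of 123 UMIs and the value without the 2 richest cells of each library was -0.14 (-0.88 to 0.54). For Ifit1bl1, an interferon-induced gene, it was 2.06 (1.53 to 2.62) against -0.54 (-0.78 to -0.30), and -0.62 (-0.88 to -0.37) without the 2 richest of the other cells. For Fcrls it was -0.49 (-0.70 to -0.29) against 1.56 (0.24 to 3.06), where the other cells held only 8 and 14 UMIs and the value without their 2 richest cells was 1.00 (-0.79 to 2.86). Each direction rests on 1 library of each kind, and the difference between the 2 sets of cells was not tested.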

How the results depend on the processing

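No paired analysis was possible because each genotype has 1 sample and the barcode suffixes are not tied to the labels, and for the same reason no replicate could be left out. The share of chosen cells was 1.65% and 1.57% with at least 10 UMIs of Mrc1, Folr2 and Pf4, 3.10% and 2.68% with at least 3, and 1.48% and 1.57% with no lymphocyte UMI, where the order of the libraries turned. Genes past 2 times between the libraries numbered 68 after thinning, 318 with a minimum of 20 UMIs and 469 with no minimum, against 138, and 59.4% of the 138 were higher in library 2, against 49.6% with the other scaling and 41.4% without the 2 richest cells per gene. Genes past 2 times against the other C1q-high cells numbered 52, 218 and 262 in the same order, against 145. The Retnla ratio was -1.64 without the 2 richest cells of each library and 1.80 without the 2 cells of library 1, a choice made after seeing the data, as was leaving out the 2 richest cells per gene.

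Gzmc between the libraries was -1.09 in cells with no lymphocyte UMI, -1.05 without the deepest 10% of cells and -0.51 without its 2 richest cells. Against the other C1q-high cells it was 0.070 in library 1 with no lymphocyte UMI and -3.75 in library 2 without the deepest cells. Ccl24 was -1.69 in library 2 with at least 10 UMIs. After thinning, Cep83 was -0.20 and 0.21 against the other cells and Hgsnat -0.23 between the libraries. List medians that turned were NK cell genes (-0.37 with no lymphocyte UMI, -0.51 without the deepest cells), interferon-stimulated genes (-0.043 with at least 3 UMIs), haem and iron genes (-0.026 after thinning) and alternative activation genes (-0.025 with no minimum). The filter on lymphocyte UMIs includes the NK cell gene Ncr1. The cause of these changes was not tested. Of 833 values of named genes between the libraries, 763 stayed within the interval of the main result, 66 moved outside it and 4 reversed sign. Against the other cells 1417 of 1594 stayed, 172 moved and 5 reversed. A reversal was counted only where the main interval left out 0. Cx3cr1 ran from -1.50 to -1.19, Arg1 from 1.53 to 2.21, Ccl5 from 1.39 to 2.42 and Ccl8 from 1.09 to 1.55 over the alternatives run. With 199 and 128 cells, a gene found in few cells carries little weight here, and shares of cells with a UMI depend on depth.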
